A study of Homo sapiens with 6 samples.

Results

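The genes described here are the EGF receptor family and its main ligands, 10 named rows of a table of 62700 gene rows. They comprise the receptors EGFR, ERBB2, ERBB3 and ERBB4 and the ligands EGF, TGFA, AREG, EREG, HBEGF and NRG1. The 10 were listed by name, but with earlier results of these data known. RNA was sequenced from A673, an established Ewing sarcoma cell line that carries the fusion oncoprotein EWS-FLI1, in 3 libraries labelled EWS-FLI1 knockout and 3 labelled parental control. Both groups were grown in DMEM with fetal bovine serum, and the labels name no drug, time course or induction. Whether the knockout cells are a clone or a pool, and whether replicates were separate cultures, is not in the labels. A clonal difference cannot be told apart from the loss of the fusion, and the spread behind each p-value may be technical only.

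Receptors of this family are transmembrane tyrosine kinases that pair when a ligand binds, phosphorylate each other and recruit adaptors that switch on the RAS-MAPK and PI3K-AKT cascades. EGF, TGFA and AREG bind EGFR, EREG and HBEGF bind EGFR and ERBB4, and NRG1 (neuregulin 1) binds ERBB3 and ERBB4. ERBB2 has no known soluble ligand and acts as a dimer partner, while ERBB3 has an impaired kinase and signals through its partners. Ligands are made as membrane precursors and released by sheddases such as ADAM17.

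The 4 receptors differed in direction, and the order of their levels changed between the genotypes. EGFR was 207-fold higher and ERBB4 46.1-fold lower in knockout than in parental libraries, with ERBB2 and ERBB3 within 1.28-fold. Among the ligands EREG was 17.6-fold higher, EGF was 2.24-fold lower, and HBEGF and NRG1 differed by 1.24-fold and 1.27-fold in opposite directions. All 10 genes passed the filter on low counts; 6 rose and 4 fell at an adjusted p under 0.05 in edgeR's quasi-likelihood test, where 73.8% of the 28485 genes tested passed, 36.3% as higher and 37.5% as lower. With total counts only 2 of the 10, EGFR and EREG, rose and 4 fell, where 7370 of all tested genes rose and 14949 fell. With upper quartile factors 4 rose and 4 fell, where 8702 of all tested genes rose and 12780 fell. The median size of a log2 fold change was 1.26 over the 10 genes and 0.82 over all tested genes, and the median of the signed values was 0.33 over the 10 genes and -0.056 over all tested genes. With 2 groups of 3 libraries, the groups did not overlap in any of the 10 genes, nor in 76.7% of all tested genes.

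The libraries held between 301605666 and 310465330 estimated counts in knockout cells and between 324069161 and 342624492 in parental cells. Levels below are in CPM, counts scaled to a common library size, after adjustment by TMM factors, which lay between 0.848 and 0.888 in knockout and between 1.14 and 1.17 in parental libraries. A scaling by total counts alone, without these factors, shifts the median log2 fold change of all genes by -0.42, so a rise smaller than that depends on the scaling. Of the fusion partners, EWSR1 averaged 245 ± 6.21 CPM in knockout and 293 ± 6.20 CPM in parental libraries (SD, n = 3 each), and FLI1 averaged 53.1 ± 2.11 CPM in knockout and 40.7 ± 1.15 CPM in parental libraries. A count per gene adds fusion reads to those of the normal genes, so these values do not check the knockout. Of 9 Ewing sarcoma markers, CD99 and NKX2-2 among them, 9 fell, with a summed level of 279.6 to 290.4 CPM in knockout and 1592 to 1635 CPM in parental libraries.

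Stretches of 300 bases around an annotated start are shown for EGFR, ERBB4, EREG and ERBB2. EGFR and EREG are the receptor and ligand with the largest rises, ERBB4 the receptor with the largest fall, and ERBB2 a receptor that changed little. ERBB3 had no window among those used, and NRG1 was left out before windows were matched. The stretches run 5′ to 3′ on the gene's strand from 250 bases before the start to 50 after it and come from RefSeq on GRCh38.p14. Capitals mark GGAA and its reverse complement TTCC, the core that ETS factors such as FLI1 read. The windows lie at chr7:55018767-55019066 on the plus strand for EGFR, chr2:212538753-212539052 on the minus strand for ERBB4, chr4:74364895-74365194 on the plus strand for EREG and chr17:39687844-39688143 on the plus strand for ERBB2. The ERBB2 window takes in the first annotated base of that gene, 39687914, and other starts of ERBB2 were not examined. ERBB2 exons overlap those of the gene PGAP3 on the other strand by 194 bases. Where this overlap lies was not examined, so letters in the ERBB2 window may belong to PGAP3.
EGFR: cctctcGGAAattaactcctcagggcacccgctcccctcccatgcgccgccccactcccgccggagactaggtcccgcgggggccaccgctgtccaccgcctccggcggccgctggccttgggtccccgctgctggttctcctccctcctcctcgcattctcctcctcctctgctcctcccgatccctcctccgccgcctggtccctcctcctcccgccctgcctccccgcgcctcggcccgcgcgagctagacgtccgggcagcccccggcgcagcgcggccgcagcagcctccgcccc
ERBB4: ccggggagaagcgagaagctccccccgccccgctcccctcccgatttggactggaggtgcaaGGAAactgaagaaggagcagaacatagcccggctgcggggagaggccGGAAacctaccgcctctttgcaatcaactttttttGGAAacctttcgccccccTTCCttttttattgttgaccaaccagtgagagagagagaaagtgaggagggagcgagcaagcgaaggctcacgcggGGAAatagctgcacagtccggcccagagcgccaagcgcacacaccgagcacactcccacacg
EREG: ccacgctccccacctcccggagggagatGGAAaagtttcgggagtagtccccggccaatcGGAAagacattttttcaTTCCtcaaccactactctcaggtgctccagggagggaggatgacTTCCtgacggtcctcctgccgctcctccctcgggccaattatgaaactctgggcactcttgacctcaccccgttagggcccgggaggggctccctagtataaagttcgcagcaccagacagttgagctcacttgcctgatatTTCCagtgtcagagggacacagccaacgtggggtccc
ERBB2: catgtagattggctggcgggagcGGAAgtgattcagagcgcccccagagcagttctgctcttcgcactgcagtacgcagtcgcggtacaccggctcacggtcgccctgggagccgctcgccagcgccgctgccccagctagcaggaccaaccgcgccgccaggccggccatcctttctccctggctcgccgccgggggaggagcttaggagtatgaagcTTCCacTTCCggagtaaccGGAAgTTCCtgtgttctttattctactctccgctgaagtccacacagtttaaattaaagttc

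The EGFR window held 1 GGAA core, while those of ERBB4, EREG and ERBB2 held 5 each, counting both strands and matches that overlap. Those of the other windows were 5 for a second EGFR start, 6 for EGF, 3 and 7 for 2 TGFA starts, and 3 each for AREG and HBEGF. Of all 35116 RefSeq promoter windows, 95.5% held at least 1 such core, with a median of 3. The tandem GGAAGGAA, the form of the repeats that EWS-FLI1 is known to bind, was in none of the 10 windows used for 8 of the 10 genes and in 3.67% of all windows. It was not looked for in ERBB3 or NRG1. The letters TGANTCA, a pattern that includes the AP-1 site, occurred 1 time in the EGF window, 1 time in the ERBB2 window and 2 times in a second EGFR window at chr7:55109589-55109888, against 7.71% of all windows with at least 1. GGGCGG, the GC box, occurred 5 times in the HBEGF window, 4 in the first of TGFA, 3 in the first of EGFR and 1 time each in those of ERBB4 and AREG, and 45.0% of all windows held it. The EGFR window had a GC content of 75.3%, and those of ERBB4, EREG and ERBB2 had 59.0%, 57.7% and 60.7%. These are matches of letters in short windows and describe neither binding nor distant enhancers. The counts are per gene, so transcripts that start at the first and the second EGFR window cannot be told apart.

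EGFR, the receptor for EGF, TGFA and amphiregulin, lies on chromosome 7 from 55019021 to 55211628 on the plus strand (GRCh38, GENCODE 29). It held 171, 145 and 139 CPM in the 3 knockout libraries, against 0.785, 0.696 and 0.715 CPM in the 3 parental libraries. Every knockout library lay far above every parental one, and the spread among knockout libraries was 16.9 CPM (SD) around a mean of 152 CPM. On the log2 scale the rise was 7.69 (SE 0.098; edgeR's adjusted p = 9.69e-18), and 174 of the tested genes, 0.611%, had a larger one. Its parental level lies near the smallest shares that genes abundant in knockout cells keep in parental libraries. Among 3251 genes with a mean of at least 20000 counts in knockout libraries, the 20 with the lowest shares kept between 0.530% and 0.618%, with a median of 0.586%. EGFR kept 0.708%, and 44 of the 3251 genes kept less. Subtracting the median share left 65.8, 29.1 and 51.0 of the 299, 263 and 285 parental counts and gave a log2 fold change of 10.23 (SE 0.208). The size of the fold thus depends on how that share is treated. For a gene this much higher in knockout libraries the subtraction could only enlarge the rise, so it does not test the direction. Whether such reads are in the EGFR count was not tested.

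ERBB4, which binds neuregulins, HBEGF and epiregulin, is a gene of 1163125 bases on chromosome 2 (211375717 to 212538841, minus strand). It held 0.497, 0.502 and 0.461 CPM in knockout libraries, against 22.0, 22.8 and 22.4 CPM in parental libraries. The groups lay far apart with little spread inside each, and the log2 value was -5.53 (SE 0.077; edgeR's adjusted p = 2.34e-24), a larger fall than in all but 626 of the tested genes, or 2.20%. In raw counts the knockout libraries held 127, 130 and 127 reads where the parental libraries held 8373, 8620 and 8943. The knockout count was 1.48% of the parental one, above the 0.532% to 0.648% kept by the 20 genes with the lowest shares in this direction. Without the median share of 0.617%, 73.7, 76.7 and 73.7 counts were left in knockout libraries, and the log2 fold change was -6.29.

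ERBB2 (HER2), the partner without a soluble ligand, lies on chromosome 17 from 39687914 to 39730426 on the plus strand. It held 46.5, 46.5 and 43.9 CPM in knockout libraries, against 37.2, 34.5 and 35.6 CPM in parental libraries. The groups did not overlap, and log2 of the fold was 0.35 (SE 0.050; adjusted p = 2e-06 in edgeR). With total counts only that value was -0.073 (adjusted p = 0.105), and the raw counts averaged 12006 in knockout and 13803 in parental libraries, so no direction independent of the scaling can be given. Exons of ERBB2 overlap those of MIEN1 by 571 bases and of PGAP3 by 194 bases, both on the other strand. MIEN1 averaged 3525 counts in knockout and 9737 in parental libraries, and PGAP3 2661 in knockout and 4564 in parental libraries. No strand-specific protocol is stated, so reads in these overlaps may belong to either gene.

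ERBB3, which binds neuregulins and couples to PI3K, lies on chromosome 12 from 56076799 to 56103505. It held 0.888, 1.01 and 0.969 CPM in knockout libraries, against 0.875, 0.746 and 0.619 CPM in parental libraries. The highest parental library lay just under the lowest knockout library, and the difference passed narrowly, by 0.35 on the log2 scale (SE 0.15; adjusted p = 0.0385 in edgeR). The call was lost with total counts only (-0.067, adjusted p = 0.689), with upper quartile factors (0.15) and with no filter on low counts (0.33). It was also lost without knockout replicate 2 (0.33), knockout replicate 3 (0.36), parental replicate 2 (0.37) or parental replicate 3 (0.25). ERBB3 is therefore given as a level near 1 CPM in both genotypes with no firm difference.

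**Figure D1:**
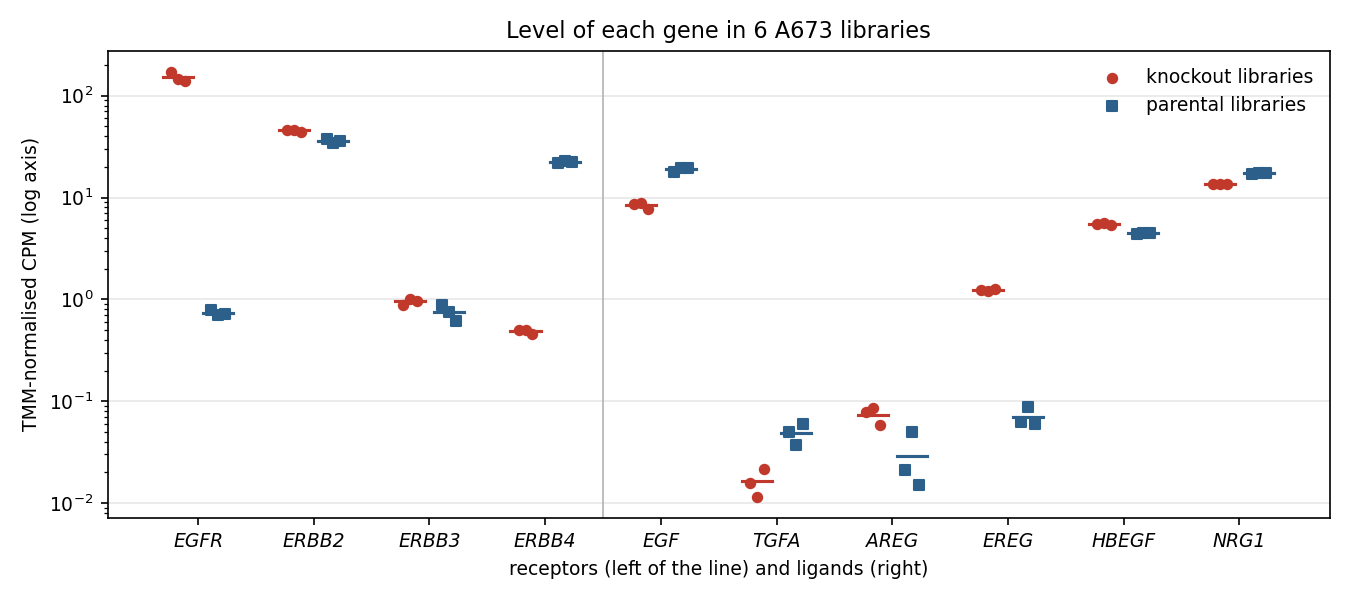
Level of each of the 10 genes in every library, in TMM-normalised CPM on a log axis, with knockout libraries as red circles left of parental libraries as blue squares and a bar at each mean of 3. EGFR sits at 139 to 171 CPM in knockout libraries and below 0.8 CPM in parental ones, ERBB4 shows the opposite order, and ERBB2, ERBB3, HBEGF and NRG1 differ little between the genotypes.

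Levels of different genes were compared per kilobase, dividing CPM by the median length of the gene's coding transcripts in the basic set of GENCODE 29. EGFR averaged 39.5 ± 4.40 CPM per kb in knockout libraries and 0.190 ± 0.0123 in parental libraries (SD, n = 3 each). ERBB2 averaged 10.5 ± 0.350 CPM per kb in knockout and 8.24 ± 0.314 in parental libraries. In the knockout cells EGFR was thus the receptor with the highest level, followed by ERBB2, ERBB3 at 0.290 and ERBB4 at 0.0403 CPM per kb. In the parental cells the order was ERBB2, ERBB4 at 1.85, ERBB3 at 0.227 and EGFR at 0.190 CPM per kb, where libraries of the last pair overlapped. As a share of the summed level of the 4 receptors, EGFR made up 78.4% ± 1.54 in knockout and 1.81% ± 0.0617 in parental libraries. ERBB2 made up 21.0% ± 1.46 in knockout and 78.4% ± 0.696 in parental libraries, and ERBB4 0.0803% ± 0.00560 in knockout and 17.7% ± 0.844 in parental libraries. These shares do not depend on the scaling between libraries, but they do on the lengths. They also depend on the residual share described for EGFR and ERBB4, which was not subtracted here. With the longest transcript of each gene EGFR made up 61.3% in knockout and 0.783% in parental libraries, and with the shortest 83.5% in knockout and 2.70% in parental libraries. The order of the 4 receptors within each genotype was the same with all 3 lengths. After subtracting the residual share, and before division by length, EGFR stood at 0.173, 0.0771 and 0.128 CPM in parental libraries. ERBB3 stood at 0.871, 0.743 and 0.615 CPM there, and ERBB4 at 0.288, 0.296 and 0.267 CPM in knockout libraries. The low parental percentage of EGFR, its overlap with ERBB3 and the knockout percentage of ERBB4 were not recomputed from these values.

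**Figure D2:**
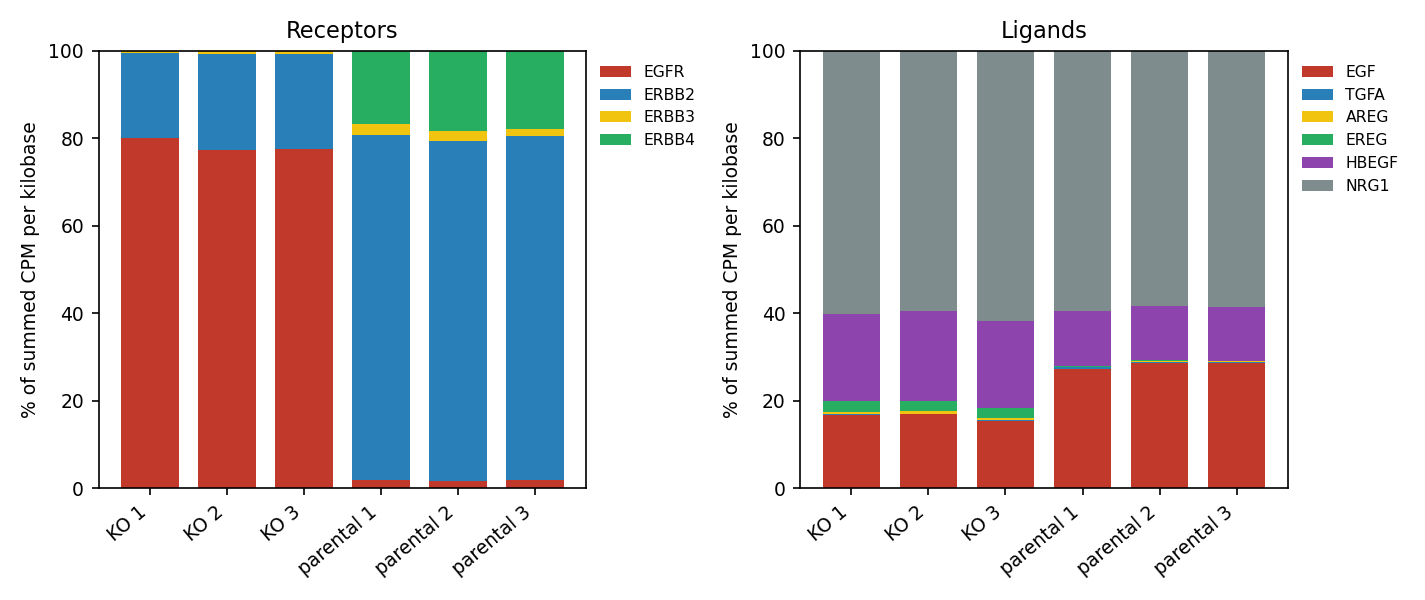
Make-up of the receptor level (left) and of the ligand level (right) in each library, as the percentage that each gene takes of the summed CPM per kilobase, using median transcript lengths and with knockout (KO) libraries left of parental ones. EGFR takes 77.4% to 80.1% of the receptor level in knockout libraries and 1.77% to 1.88% in parental ones, while NRG1, EGF and HBEGF make up nearly all of the ligand level in both genotypes. The residual share described for EGFR and ERBB4 was not subtracted.

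Of the ligands of EGFR, EREG (epiregulin), on chromosome 4 from 74365143 to 74388751, rose most. It held 1.24, 1.21 and 1.26 CPM in knockout libraries, against 0.0630, 0.0873 and 0.0602 CPM in parental libraries. The knockout values were close together and all far above the parental ones, with log2 of the fold at 4.13 (SE 0.19; adjusted p = 1.08e-14 in edgeR). In estimated counts the difference was 318, 313 and 347 in knockout libraries, against 23.7, 33.4 and 24.1 in parental libraries.

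EGF, the founding ligand of the family, fell. It held 8.70, 8.79 and 7.74 CPM in knockout libraries, against 17.9, 19.4 and 19.4 CPM in parental libraries. No knockout library reached the parental range, the log2 value was -1.17 (SE 0.063; adjusted p = 1.71e-13 in edgeR), and it was -1.59 with total counts only. EGF lies on chromosome 4 from 109912884 to 110012266.

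HBEGF, the heparin-binding ligand of EGFR and ERBB4 on chromosome 5 (140332843 to 140346631), held 5.48, 5.66 and 5.36 CPM in knockout libraries, against 4.37, 4.47 and 4.47 CPM in parental libraries. The groups did not overlap and differed by 0.31 on the log2 scale (SE 0.074; adjusted p = 0.000688 in edgeR). As for ERBB2, the raw counts ran the other way, with means of 1449 in knockout and 1711 in parental libraries. The log2 fold change was 0.11 (adjusted p = 0.147) with upper quartile factors and -0.11 (adjusted p = 0.133) with total counts only, so its direction depends on the scaling.

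TGFA (transforming growth factor alpha) and AREG (amphiregulin) were barely detected. TGFA lies on chromosome 2 (70447280 to 70554193) and AREG on chromosome 4 (74445134 to 74455009). TGFA had 4, 3 and 6 counts in knockout libraries, against 19, 14 and 24 counts in parental libraries, and a floor of 3 counts in a library corresponds to 0.0109 to 0.0117 CPM in knockout and 0.00752 to 0.00794 CPM in parental libraries. Its log2 value of -1.56 (SE 0.51; adjusted p = 0.00944 in edgeR) did not pass in the DESeq2 Wald test (adjusted p = 0.0577) or without parental replicate 3 (adjusted p = 0.0535). AREG had 20, 22 and 16 counts in knockout libraries, against 8, 19 and 6 counts in parental libraries, so that parental replicate 2 exceeded knockout replicate 3 before scaling. Its log2 value of 1.35 (SE 0.47; adjusted p = 0.0137 in edgeR) did not pass with total counts only (adjusted p = 0.0894), nor without knockout replicate 2 (1.25), parental replicate 1 (1.19) or parental replicate 3 (1.05), and was 2.02 without parental replicate 2. TGFA passed the filter on low counts through its parental libraries and AREG through its knockout libraries, so a difference between the genotypes was built into their being tested.

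NRG1, the neuregulin that binds ERBB3 and ERBB4, is spread over 1128574 bases of chromosome 8 (31639386 to 32767959). It held 13.7, 13.6 and 13.7 CPM in knockout libraries, against 17.1, 17.4 and 17.5 CPM in parental libraries. The spread within each genotype was under 0.2 CPM (SD 0.101 in knockout and 0.170 in parental libraries), and the log2 value was -0.34 (SE 0.053; adjusted p = 4.95e-06 in edgeR). NRG1 was at -0.77 with total counts only. The scalings tried besides TMM moved the values of all genes by medians of -0.42, -0.20 and 0.026. None of them could have undone a fall of this size. NRG1-IT1, annotated as a transcript inside an NRG1 intron, had 5, 6 and 6 counts in knockout libraries, against 389, 451 and 458 counts in parental libraries. Its log2 value of -5.68 (SE 0.23; adjusted p = 1.05e-15 in edgeR) was far from that of the host gene, and was -6.73 after subtracting the share used for ERBB4. No exon of the 2 genes overlaps in GENCODE 29. NRG1-IT1 passed the filter on low counts through its parental libraries, as TGFA did, so a difference was built into its being tested. EGFR-AS1, antisense to EGFR over 186 exonic bases, held 0.143 ± 0.00317 CPM in knockout and 0.0788 ± 0.0205 CPM in parental libraries, or 0.86 on the log2 scale (SE 0.30; adjusted p = 0.015 in edgeR). It did not pass with total counts only (0.44), with upper quartile factors (0.65) or without parental replicate 3 (0.75). It averaged 37.5 counts in knockout libraries, where EGFR had 39871, and 30.4 counts in parental libraries, where EGFR had 282. As for ERBB2, reads in the 186 shared bases may belong to either gene. TGFA-IT1 had 0 counts in every library, and NRG1-IT3 had 0 in every knockout library, against 1, 0 and 1 counts in the parental libraries.

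Per kilobase, NRG1 had the highest ligand level in both genotypes with median transcript lengths, at 6.93 ± 0.0511 in knockout and 8.78 ± 0.0861 in parental libraries. EGF and HBEGF changed places. In knockout libraries HBEGF stood at 2.31 ± 0.0638 and EGF at 1.87 ± 0.130 CPM per kb, and in parental libraries HBEGF stood at 1.86 ± 0.0248 and EGF at 4.20 ± 0.190 CPM per kb. EREG reached 0.268 ± 0.00570 CPM per kb in knockout libraries, against 0.0152 ± 0.00323 in parental libraries, and stayed below HBEGF, EGF and NRG1. The place of NRG1 rests on the length used, since its coding transcripts run from 0.762 to 5.931 kb. With the longest transcripts NRG1 and HBEGF overlapped in knockout libraries and EGF led in parental libraries, and with the shortest EGF and HBEGF overlapped in knockout libraries.

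EREG and AREG lie in a cluster of ligand genes on chromosome 4 that spans 486 kb from EPGN (epigen) to BTC (betacellulin). The order is EPGN, EREG 49.8 kb further, AREG after another 56.4 kb and BTC after 289.8 kb, with BTC on the opposite strand. The fold changes were uneven along it. BTC had 48, 49 and 30 counts in knockout libraries, against 11, 4 and 6 counts in parental libraries, or 3.13 on the log2 scale (SE 0.43; adjusted p = 9.43e-07 in edgeR). It passed the filter on low counts through its knockout libraries, as AREG did. EPGN had 10 to 26 counts in knockout libraries, against 19.2 to 32.3 counts in parental libraries, and did not pass (0.35, SE 0.41, edgeR adjusted p = 0.454). EREG thus rose between 2 neighbours of which EPGN overlapped between the genotypes and AREG differed narrowly, all at under 2 CPM.

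**Figure D3:**
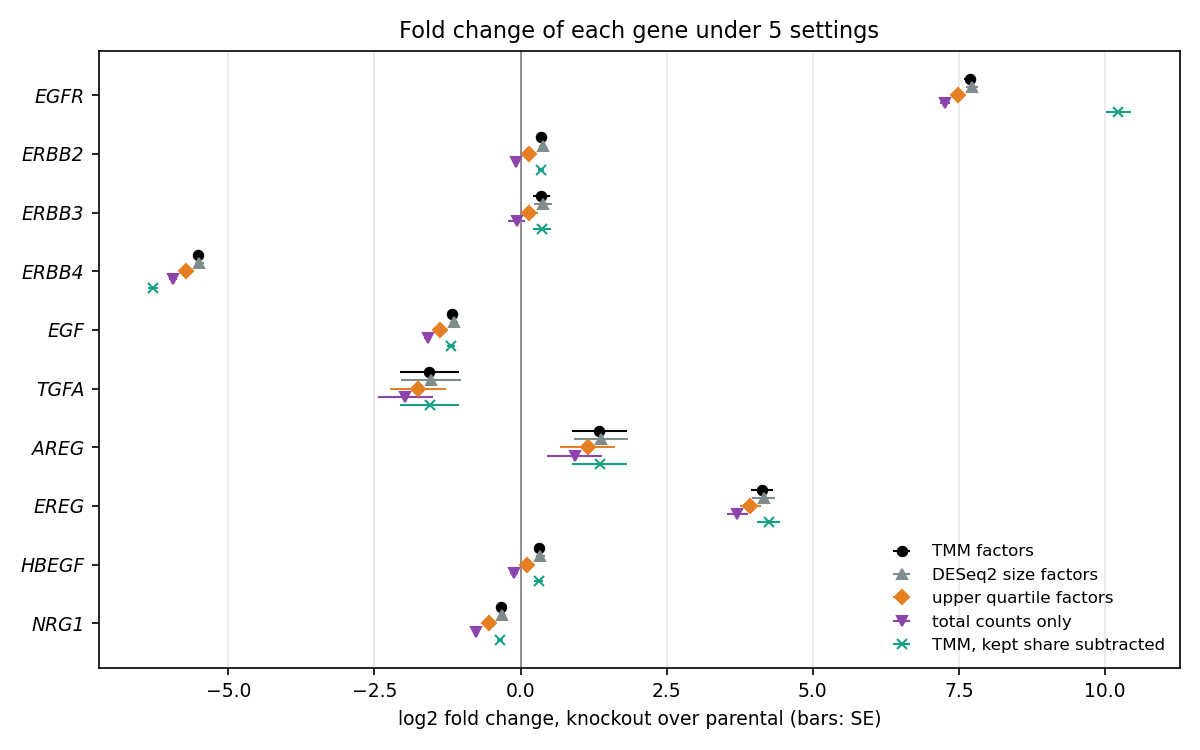
Log2 fold change (knockout over parental) of each of the 10 genes with TMM factors, DESeq2 size factors, upper quartile factors, total counts only, and TMM after subtracting the residual share described for EGFR and ERBB4; bars are SE. EGFR, ERBB4, EGF, EREG and NRG1 keep their side of 0 under all 5, ERBB2, ERBB3 and HBEGF lie below 0 with total counts only, and EGFR stands at 10.23 after the subtraction and at 7.69 without it.

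The remaining ligands of the family were low. Of EPGN, BTC, NRG2, NRG3 and NRG4, 4 were tested, 2 rose and none fell. NRG2, a neuregulin of ERBB3 and ERBB4, rose to 1.82 ± 0.159 CPM in knockout libraries, against 0.166 ± 0.0247 CPM in parental libraries (log2 fold change 3.45, SE 0.16, edgeR adjusted p = 1.08e-14). NRG4 had a log2 value of -0.49 (SE 0.25, adjusted p = 0.0799). It passed, as lower, under total counts (adjusted p = 0.00442), under upper quartile factors (adjusted p = 0.0201) and without knockout replicate 1 (adjusted p = 0.0385). NRG3 had 0 counts in every knockout library and 2, 2 and 0 in parental libraries.

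Other genes of the pathway were taken from lists by role, 75 genes in all, also drawn up with earlier results of these data known. Of 73 tested, 50 rose, 11 fell and 12 did not pass, where 36.3% of all tested genes passed as higher and 37.5% as lower, the background for each list below. Their median was 0.41 on the log2 scale, where all tested genes had -0.056. That balance moved with the scaling used. Under total counts only 34 rose and 33 fell, and with upper quartile factors 38 rose and 21 fell. The lists of sheddases, of ERK-responsive genes and of other ligands held more risen than fallen genes with every scaling tried. With total counts only the medians were below 0 for the adaptors (-0.15), the receptor inhibitors (-0.14), the co-receptors (-0.47) and the RAS-MAPK and PI3K-AKT cascades (-0.033).

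Of 6 sheddases and partners, which release the ligands, 6 rose with TMM factors, and 5 rose and 1 fell with total counts only. ADAM17, which cuts HBEGF, TGFA, AREG and EREG from the membrane, averaged 128 ± 6.43 CPM in knockout and 50.5 ± 1.96 CPM in parental libraries (log2 fold change 1.34, SE 0.052, edgeR adjusted p = 4.27e-16). ADAM10, the main sheddase of EGF and betacellulin, averaged 185 ± 10.5 CPM in knockout and 114 ± 4.22 CPM in parental libraries (0.70, SE 0.052). The iRhom proteins that carry ADAM17 to the cell surface rose more. RHBDF1 averaged 82.8 ± 10.1 CPM in knockout and 2.36 ± 0.264 CPM in parental libraries (5.13, SE 0.13), and RHBDF2 105 ± 0.961 CPM in knockout and 8.16 ± 0.194 CPM in parental libraries (3.69, SE 0.053).

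Of 13 genes that inhibit the receptors or turn them over, 12 were tested, 9 rose and 2 fell, and with total counts only 5 rose and 7 fell. LRIG1, a membrane protein that promotes degradation of EGF receptors, averaged 741 ± 31.7 CPM in knockout and 47.3 ± 1.03 CPM in parental libraries (log2 fold change 3.97, SE 0.055, edgeR adjusted p = 2.17e-24). Its relative LRIG3 averaged 78.6 ± 1.83 CPM in knockout and 6.86 ± 0.0882 CPM in parental libraries (3.52, SE 0.053). ERRFI1 (MIG6), a feedback inhibitor that binds the EGFR kinase, averaged 215 ± 4.79 CPM in knockout and 28.5 ± 0.605 CPM in parental libraries (2.91, SE 0.050). PTPRJ, a receptor phosphatase, averaged 73.5 ± 6.08 CPM in knockout and 12.8 ± 0.449 CPM in parental libraries (2.53, SE 0.061). These 4 kept their rise under every alternative run. The 2 that fell were the ubiquitin ligase CBL (-0.28, SE 0.075, adjusted p = 0.00462; adjusted p = 0.0504 without parental replicate 1) and the SOCS-box protein SOCS4 (-0.21, SE 0.056, adjusted p = 0.00182).

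Among 7 co-receptors, scaffolds and chaperones 3 rose and 2 fell, and with total counts only or upper quartile factors 3 rose and 4 fell. CD44, whose isoforms with heparan sulfate present HBEGF, averaged 969 ± 56.7 CPM in knockout and 4.08 ± 0.222 CPM in parental libraries (log2 fold change 7.89, SE 0.073, edgeR adjusted p = 6.51e-27). Its parental count was 0.617% of the knockout count, within the range of the 20 lowest shares, so its parental level cannot be told apart from such a share, and its log2 value was 12.18 (SE 0.447) after subtraction. CD9, a tetraspanin that binds the HBEGF precursor, averaged 37.0 ± 1.19 CPM in knockout and 1.27 ± 0.0868 CPM in parental libraries (4.87, SE 0.068). MUC1, a membrane mucin that EGFR phosphorylates, averaged 22.0 ± 2.61 CPM in knockout and 1.36 ± 0.156 CPM in parental libraries (4.02, SE 0.11). MUC4, a mucin partner of ERBB2, averaged under 0.1 CPM in both genotypes (-1.46, SE 0.45, edgeR adjusted p = 0.00662). It did not pass without parental replicate 1 (edgeR adjusted p = 0.0735). It passed the filter on low counts through its parental libraries.

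Of 11 adaptors and proximal effectors 6 rose and 2 fell (median log2 value 0.27), and with total counts only 2 rose and 7 fell. The exchange factor VAV2 averaged 84.5 ± 1.90 CPM in knockout and 32.5 ± 0.923 CPM in parental libraries (log2 fold change 1.38, SE 0.049, edgeR adjusted p = 7.48e-17), and the adaptor SHC1 524 ± 13.2 CPM in knockout and 257 ± 5.35 CPM in parental libraries (1.03, SE 0.047). GRB2 and SOS1, which link the receptors to RAS, had log2 fold changes of 0.36 (SE 0.047) and 0.30 (SE 0.053), and of -0.062 and -0.13 with total counts only, where SOS1 passed as lower (adjusted p = 0.0273). Of 18 genes of the RAS-MAPK and PI3K-AKT cascades 12 rose and 3 fell (median log2 value 0.39), but with total counts only 8 rose and 9 fell. The transcription factor STAT3 rose by 1.10 on the log2 scale (SE 0.048) and the catalytic subunit PIK3CB by 0.93 (SE 0.053). PIK3R1, a regulatory subunit of PI3K, fell to 22.6 ± 1.69 CPM in knockout libraries, against 44.4 ± 0.777 CPM in parental libraries (-0.98, SE 0.056).

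Of 15 genes known to respond to ERK signalling 12 rose and 2 fell (median log2 value 0.91), and with total counts only 9 rose and 4 fell. As background, A673 cells are known to carry an activating BRAF mutation. PHLDA1 averaged 615 ± 17.1 CPM in knockout and 9.20 ± 0.409 CPM in parental libraries (6.06, SE 0.061, edgeR adjusted p = 1.58e-26), and IER3 1095 ± 38.1 CPM in knockout and 26.8 ± 0.988 CPM in parental libraries (5.35, SE 0.059). The ERK phosphatase DUSP4 averaged 441 ± 15.3 CPM in knockout and 11.5 ± 0.666 CPM in parental libraries (5.26, SE 0.062), and the AP-1 subunit FOSL1 52.8 ± 1.62 CPM in knockout and 3.79 ± 0.140 CPM in parental libraries (3.80, SE 0.058). The 2 that fell were the feedback inhibitor SPRY4, at 18.6 ± 0.235 CPM in knockout and 55.9 ± 0.564 CPM in parental libraries (-1.59, SE 0.049), and the cell cycle gene CCND1 (cyclin D1), at 504 ± 19.9 CPM in knockout and 1757 ± 33.4 CPM in parental libraries (-1.80, SE 0.049).

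**Figure D4:**
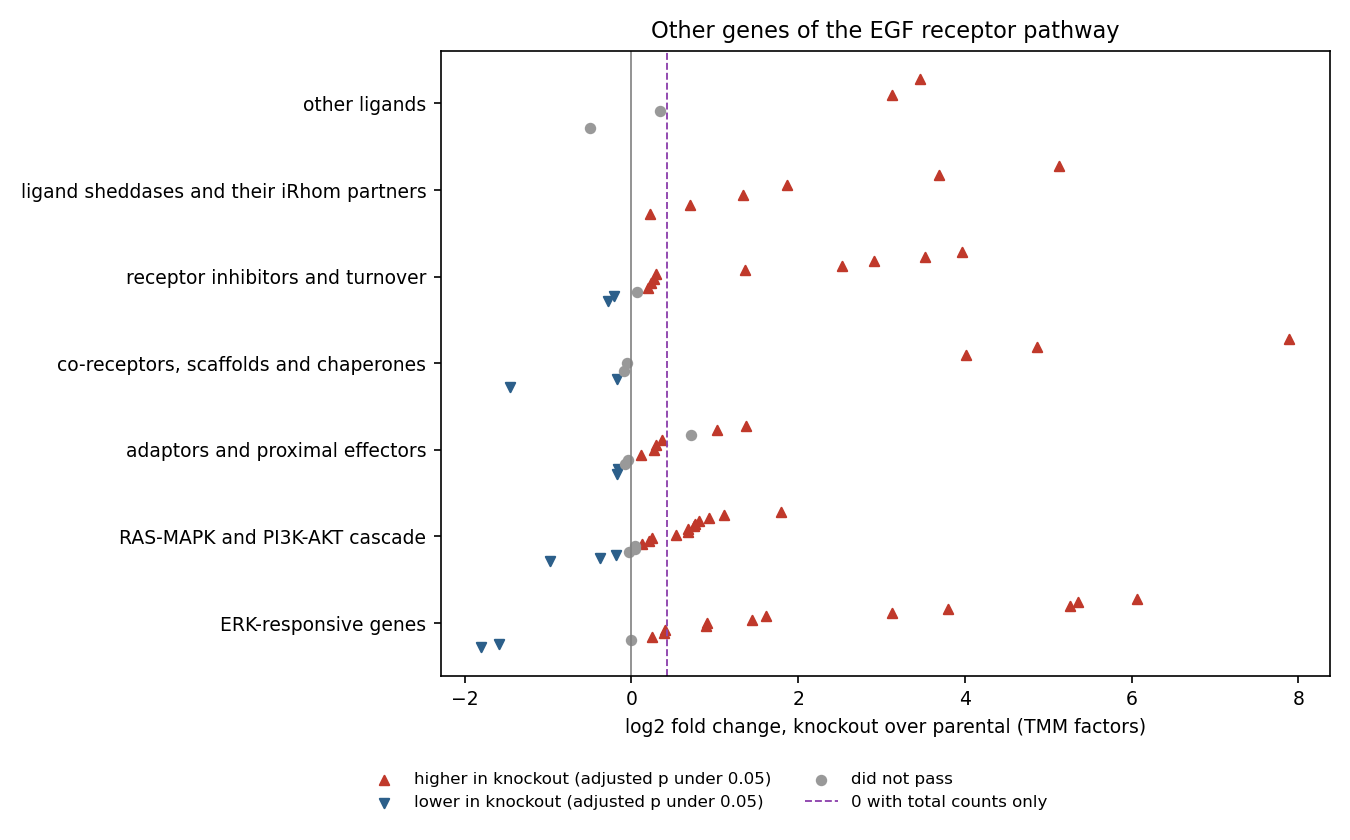
Log2 fold change (knockout over parental, TMM factors) of the 73 tested pathway genes outside the 10, 1 row of points per role; red triangles passed as higher, blue as lower, grey circles did not pass, and the dashed line marks where 0 would lie with total counts only. Sheddase partners, LRIG genes, co-receptors and ERK-responsive genes reach log2 fold changes above 3, while adaptors and kinases lie mostly between -1 and 2.

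Markers of other cell types were examined because EGF receptors are typical of epithelia and ERBB3 of Schwann cells. Of 7 epithelial markers 4 were tested, 1 rose and 2 fell, with a summed level of 0.704 to 1.03 CPM in knockout and 4.29 to 4.78 CPM in parental libraries. KRT5, KRT19 and GRHL2 did not pass the filter on low counts. Of 5 Schwann and glial markers 4 fell and 1 rose, with a summed level of 2.62 to 2.66 CPM in knockout and 16.5 to 18.4 CPM in parental libraries. All 6 fibroblast and mesenchymal markers rose, with a summed level of 45299 to 46282 CPM in knockout and 372 to 394 CPM in parental libraries. Of 5 leukocyte markers 3 were tested and 2 rose, with summed levels of 12.7 to 14.4 CPM in knockout and 4.87 to 5.85 CPM in parental libraries. Of 5 endothelial markers 2 rose and 1 fell, at 8.64 to 9.35 CPM in knockout and 0.820 to 0.909 CPM in parental libraries. The part of these differences in the receptor and ligand values was not tested, and in a bulk library more cells of a type cannot be told apart from more RNA per cell.

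Several other genes followed the same pattern across the 6 libraries. Among 11473 other named genes of at least 5 CPM, those closest to EGFR by Pearson's r of log2(CPM + 0.1) were BNC2 (r = 0.99999, log2 fold change 7.70) and THSD4 (r = 0.999985, 6.68), and those closest to ERBB4 were FRG2 (r = 0.999988, -6.11) and ID2 (r = 0.999985, -4.69). The pairs were HEXIM1 and WDTC1 for ERBB2, BCCIP and DHX40 for EGF, and GLB1L and TRPM8 for NRG1. An r above 0.99 was reached by 3225 of these genes with EGFR and by 2353 with ERBB4, since over 2 groups of 3 libraries r mostly reads the difference between the groups.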

How the data were processed

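Messenger RNA of A673 cells was enriched with oligo-dT beads and sequenced on an Illumina NovaSeq after NEBNext Ultra II library preparation, per the labels' protocols, which state no strand-specific protocol. The authors deposited 1 table of estimated counts per gene with a column per library; kallisto 0.48.0 and the build hg38 are named in the submitters' processing notes. The sources used here do not give the annotation release, the summing to genes or any filter. The tool splits reads that match several transcripts, and between 53.3% and 56.6% of a column's values were whole to within 1e-06.

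After rounding, edgeR 4.0.16 (R 4.3.3) was applied with filterByExpr (minimum count 10, minimum total 15), TMM factors and a robust quasi-likelihood model with genotype as its term over all 6 libraries, two-sided, with Benjamini-Hochberg adjustment over 28485 genes at 0.05. Each SE was taken as the absolute log2 fold change over the root of F, and the common biological coefficient of variation was 7.53%. The floor of 3 counts covers counting error only. The steps were run on simulated data with 200 changed genes and as many rises as falls, which does not test the choice of scaling. Alternatives used DESeq2 1.42.0, limma 3.58.1, other scalings and filters, a replicate block and each library left out.

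Named genes were the 10 members, EWSR1 and FLI1, up to 4 genes with the smallest adjusted p in each pathway list, antisense or intronic transcripts named after a member, and the 2 nearest genes by r. Outside this rule, NRG3, PGAP3, MIEN1, CBL, SOCS4, SPRY4 and CCND1, and the markers CD99, NKX2-2, KRT5, KRT19 and GRHL2, were chosen after their values were seen, and 1 gene that the rule names is not reported here. The members and lists were chosen with earlier results of these data known. Positions and lengths are from GENCODE 29 (GRCh38), matched by identifier without version for all 10 genes. No pair of libraries of a genotype agreed within sampling noise: chi-square per degree of freedom was 11.1 to 78.1 over genes with at least 100 counts.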

Additional observations from a re-analysis of the deposited data

How the results depend on the processing

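Across 16 alternatives EGFR, ERBB4, EGF, EREG and NRG1 kept their direction and passed in all in which they were tested. EGFR lay between 7.27 and 10.23 and ERBB4 between -6.29 and -5.47 on the log2 scale. Of the alternatives, subtracting the residual share could only enlarge the changes of EGFR and ERBB4. With total counts only, values turned to -0.073 for ERBB2, -0.067 for ERBB3, -0.11 for HBEGF, -0.040 for FLI1, -0.070 for EPGN, -0.062 for GRB2 and -0.13 for SOS1, AREG at 0.93 no longer passed, 2 of the 10 genes rose in place of 6, and 33 pathway genes fell in place of 11. Over all genes that scaling gave 7370 higher and 14949 lower, so that 33.0% of the calls were higher in place of 49.1%; upper quartile factors gave 40.5%. With upper quartile factors ERBB3 (0.15) and HBEGF (0.11) no longer passed and 21 pathway genes fell. With no filter on low counts ERBB3 (0.33) did not pass, and with at least 1 CPM in 3 libraries 6650 genes rose and 6975 fell, as fewer genes were tested; ERBB3, TGFA and AREG were then not tested. In the DESeq2 Wald test TGFA (-1.56) did not pass. Leaving out 1 library moved ERBB3 between 0.25 and 0.51, AREG between 1.05 and 2.02 and TGFA between -1.81 and -1.36. Same-numbered libraries deviated from their genotype means with correlations of -0.22, -0.03 and 0.05, and other pairs with -0.21 to 0.20. These values show no pairing. With 3 libraries per genotype they cannot tell whether same-numbered samples were handled together. With a replicate block ERBB3 (0.37, edgeR adjusted p = 0.0549) did not pass and the other 9 genes kept their calls, with 10041 genes higher and 10377 lower. Rises under 0.42 on the log2 scale cannot be told apart from the choice of scaling, and depth limits TGFA and AREG. The scalings tried moved values down, or up by a median of only 0.026. They could not have undone a small fall such as that of NRG1.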
